A study of Mus musculus with 38 samples.

Results

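The islet hormone genes Ins2, Iapp, Gcg, Ppy, Pyy and Sst were followed on 38 mouse spleen arrays. All probes annotated to the 6 genes were taken: 1 probe per gene, 6 of 34492 probes in all. Each array held spleen RNA of 1 BXD strain, an inbred line in which segments of C57BL/6 and DBA/2 descent alternate, pooled from 2 mice of the same sex aged 8 to 12 weeks. The mice of 35 arrays were male and those of BXD18, BXD38 and BXD96 were female, per the labels, and no treatment was labelled. With 1 pool per strain, the strain was the replicate, and the spread between strains held technical error too. For 34 strains, flow cytometry of lymphocytes gave traits that the expression values were set against. Markers of spleen cells were detected: 5 of 5 T cell genes, 5 of 5 B cell genes and 6 of 6 red pulp macrophage or erythroid genes with a probe, each on all 38 arrays. So were 11377 of all 34492 probes, and detection alone does not identify the tissue.

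In the pancreas, islets hold the hormone-secreting cells, and they lie among the far more numerous acinar cells, which secrete digestive enzymes. Beta cells make insulin, encoded in the mouse by Ins1 and Ins2, and co-secrete amylin, encoded by Iapp. Alpha cells make glucagon from Gcg, delta cells make somatostatin from Sst, and the PP cells make pancreatic polypeptide from Ppy, while peptide YY from Pyy is known from gut and some islet cells. The spleen lies beside the tail of the pancreas, and its lymphoid and red pulp cells are not known as a source of islet hormones.

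Ins2, Iapp and Gcg were measured above background on at least 3 arrays, and Ppy, Pyy and Sst on none. A probe was called detected where its detection p-value, smoothed along intensity, was under 0.01. The intensity at which probes became detected lay between 95.5 and 135.4 on the different arrays. Probe intensities as deposited are given first below; a probe's level says nothing of one transcript's abundance against another's.

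Ins2, the insulin gene, was the member with the widest range. Its intensity was 83.5 on the lowest array (BXD66), 132.6 at the median and 701.7 on the highest (BXD28), and it was detected on 34 of 38 arrays. The 4 highest arrays stood clear of the rest: BXD28 at 701.7, BXD61 at 430.2, BXD44 at 343.9 and BXD19 at 328.3. BXD36 (222.4) and BXD11 (219.8) followed, and the other 32 arrays reached at most 176.2 (BXD38). In normalised log2 units the level of Ins2 ran from 5.15 to 9.87, with a median of 5.99 and an SD of 1.03 (n = 38). In BXD28 its intensity was 6.53 times that array's detection limit. No probe carried the symbol Ins1, the insulin gene whose sequence is close to that of Ins2. Because probe sequences were not used here, whether the Ins2 probe also reads Ins1 was not tested.

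Iapp, the amylin gene, had an intensity of 103.3 on the lowest array (BXD18), 121.5 at the median and 165.5 on the highest (BXD28), and it was detected on 27 of 38 arrays. Its log2 level ran from 5.21 to 7.07 with an SD of 0.40. BXD28 and BXD44 were the highest arrays by intensity, and most others lay close to the detection limit; the highest value was 1.54 times the limit of its own array.

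Gcg, the glucagon precursor gene, was detected on 3 arrays, at 158.5 in BXD28, 156.0 in BXD44 and 125.2 in BXD61. Elsewhere it was not detected, with a median of 86.2 over all 38 arrays and a lowest value of 68.5 in BXD73. These 3 arrays are also the 3 with the most Ins2. BXD19, next in order of Ins2, had Gcg at 93.8, which was not detected.

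The probes of the delta cell and PP cell hormones stayed below detection. Sst had intensities of up to 92.8 with a median of 71.9, Ppy of 52.8 to 89.0 with a median of 74.2, and Pyy of 65.2 to 113.7 with a median of 85.1. Measured against the detection limit of the same array, their highest values were 0.864 for Sst (BXD28), 0.755 for Ppy (BXD38) and 0.933 for Pyy (BXD75). At this sensitivity their transcripts were not detectable, which does not show that they were absent.

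The upstream sequences of Gcg and Iapp, which were detected, and of Sst, which was not detected, are printed so that their elements can be compared. RefSeq windows of the GRCm38.p6 build were matched by symbol for 5 of the 6 members, and the 250 bases before the start are given 5′ to 3′ on the gene's strand. Capitals mark exact matches to TATAAA, a form of the TATA box, to TGACGTCA, the cyclic AMP response element, and to CATCTG, an E-box form. Each was searched on both strands. Other forms of the TATA box were not searched, so the Iapp and Sst windows, without TATAAA, are not shown to lack one. A match to TATAAA on the opposite strand is likewise not shown to be a TATA box of the gene.
Gcg (chr2:62483654-62483903, minus strand): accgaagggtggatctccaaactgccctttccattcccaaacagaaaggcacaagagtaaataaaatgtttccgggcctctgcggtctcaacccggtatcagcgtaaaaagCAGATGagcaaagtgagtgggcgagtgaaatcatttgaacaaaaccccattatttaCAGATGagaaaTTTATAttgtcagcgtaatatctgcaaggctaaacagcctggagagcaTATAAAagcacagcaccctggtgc
Iapp (chr6:142298175-142298424, plus strand): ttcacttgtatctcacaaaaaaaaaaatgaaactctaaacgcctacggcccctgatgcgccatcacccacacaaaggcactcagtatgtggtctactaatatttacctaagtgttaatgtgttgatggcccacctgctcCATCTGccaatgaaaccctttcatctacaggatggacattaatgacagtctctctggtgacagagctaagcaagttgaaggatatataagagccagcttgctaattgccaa
Sst (chr16:23890845-23891094, minus strand): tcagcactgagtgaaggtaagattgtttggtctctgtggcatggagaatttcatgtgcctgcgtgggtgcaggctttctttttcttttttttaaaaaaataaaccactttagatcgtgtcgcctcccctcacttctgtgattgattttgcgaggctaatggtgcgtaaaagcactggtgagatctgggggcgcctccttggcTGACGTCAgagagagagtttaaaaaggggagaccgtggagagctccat
The Gcg window held TATAAA at -72 (on the opposite strand) and -24, and CATCTG at -139 and -83, both on the opposite strand, counted from the base before the start as -1 to the match's first base. The Iapp window held CATCTG at -111, and the Sst window held TGACGTCA at -48. Of 32851 windows of the same length, 12.4% held TATAAA, 1.55% TGACGTCA and 14.4% CATCTG. These matches describe letters in the windows and were not tested for function.

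The relation to acinar genes was asked with Cpa1, which encodes the pancreatic enzyme carboxypeptidase A1. Cpa1 intensity was 76.2 on the lowest array (BXD66), 1257 at the median and 60115 on the highest (BXD44), and it was detected on 27 arrays. All 26 genes of an acinar list with a probe were detected on at least 3 arrays, and in the fit on Cpa1 25 of the 25 tested rose with it, at a median slope of 0.87 log2 units per log2 unit. In that fit 1.11% of all 17582 probes were called upwards. In bulk RNA, fewer cells of a type and less RNA per cell cannot be told apart.

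Ins2 was high where Cpa1 was high, but only on some of those arrays. The 6 arrays with Ins2 above an intensity of 200 all had Cpa1 at 42101 or more. In all, 8 arrays had Cpa1 that high, and over these Ins2 ran from 150.3 (BXD68) to 701.7 (BXD28). Below a Cpa1 of 42101, BXD14 had more Ins2 than BXD68, at 171.8, and Iapp at 144.9, with Cpa1 at only 482. Signal did not go to 0 either where Cpa1 was not detected, which was on 11 arrays. Ins2 was detected on 8 of these, at intensities of 83.5 to 140.9 over the 11, and Iapp on 8, at 103.3 to 134.8. Gcg was detected on none of these 11 arrays. The Ins2 and Iapp probes therefore gave signal near the detection limit without measurable Cpa1.

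**Figure D1:**
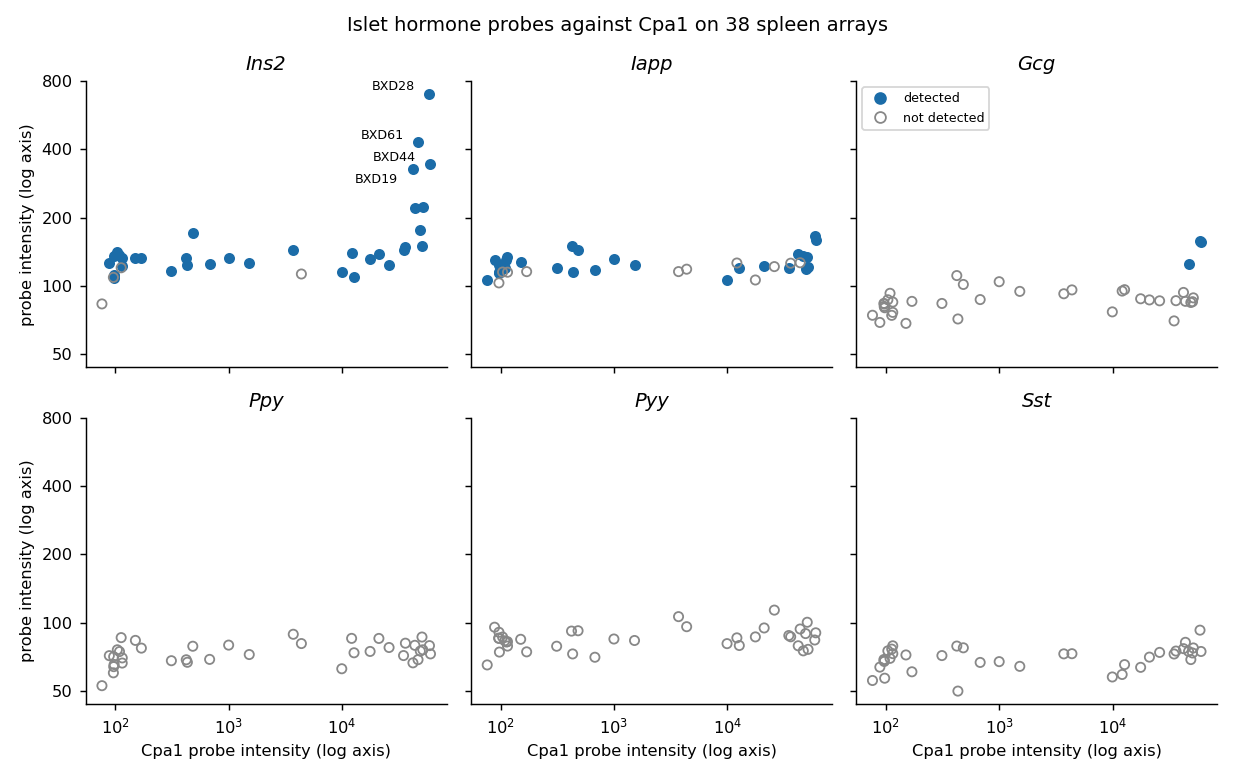
Probe intensity of the 6 hormone genes (vertical, log axis) against Cpa1 probe intensity (horizontal, log axis) on 38 arrays; filled points were detected and open points were not. Ins2 rises above 200 on 6 arrays, all with Cpa1 at 42101 or more, Gcg is detected on 3 arrays, and Ppy, Pyy and Sst on none.

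In a limma fit across all probes kept, Ins2 rose with Cpa1 by 0.13 ± 0.03 log2 units per log2 unit of Cpa1 (SE, n = 38 arrays, Benjamini-Hochberg adjusted p = 0.0185). Its slope was above those of 99.4% of 17582 probes, of which 2% were called in either direction and 1.11% upwards. Iapp had a slope of 0.02 ± 0.01 (adjusted p = 0.612), so Ins2 passed the threshold of 0.05 and Iapp did not. Gcg had a slope of 0.05 ± 0.02, given as a description because it was kept only through the 3 arrays on which it was detected. The Ins2 call held with each of the 38 arrays left out in turn and without the 2 arrays farthest from the median Cpa1 (0.13, adjusted p = 0.039). Over the 38 arrays Pearson's r of Ins2 and Cpa1 was 0.546 and Spearman's rho 0.527, with adjusted permutation p of 0.000252 and 0.00201 over 9 such relations (r and rho each), and r was 0.534 without the 2 arrays farthest from the median Cpa1. The call also held with no background correction (0.10, adjusted p = 0.0176). With the detection p-values as deposited, which also changed the probes kept, the slope was 0.04 (adjusted p = 0.105). Without BXD28, BXD61, BXD44 and BXD19, the 4 arrays with the most Ins2, it was 0.05 (adjusted p = 0.237); since those arrays were chosen by Ins2 itself, a smaller slope follows in part from the choice. On the 35 arrays labelled male the slope was 0.13 (adjusted p = 0.0502). With the authors' processed values it was 0.06 (adjusted p = 0.0167).

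Cpa1 and many other enzyme probes came near the top of the intensity scale on the arrays of interest, where they can tell those arrays apart only poorly. As an alternative added after the data were seen, the mean of the 7 acinar genes that stayed under an intensity of 20000 on every array was used in place of Cpa1. These genes were Prss2, Pnliprp2, Gp2 and Serpini2, which encode secreted or granule proteins, and Ptf1a, Rbpjl and Bhlha15, which encode acinar transcription factors. Gp2 and Bhlha15 were detected on all 38 arrays, also where Cpa1 was not, so the mean holds some signal found without measurable Cpa1. On that scale Ins2 rose by 0.34 ± 0.05 log2 units per log2 unit (limma adjusted p = 4.3e-07) and Iapp by 0.09 ± 0.02 (adjusted p = 0.0257). Gcg had a slope of 0.13 ± 0.03, given as a description because it was kept only through the 3 arrays on which it was detected. Ranks gave weaker relations for Gcg and Iapp. Spearman's rho with the same mean was 0.488 for Ins2 (adjusted permutation p = 0.00312) and 0.255 for Iapp (adjusted p = 0.148). For Gcg, again as a description, it was 0.26. Pearson's r was 0.771 for Ins2 and 0.50 for Iapp (adjusted permutation p of 6e-05 and 0.00292). For Gcg it was 0.546, which follows the 3 arrays with detected Gcg. Without BXD19 and BXD28, the arrays farthest from the median acinar mean, r was 0.691 for Ins2, 0.40 for Gcg and 0.263 for Iapp. Spearman's rho was then 0.40, 0.132 and 0.124 in the same order. The relation of Iapp thus rested on those arrays, and BXD44 and BXD61, which remained, are arrays with detected Gcg. The count of called probes over all was 976 on this scale, against 352 with Cpa1.

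**Figure D2:**
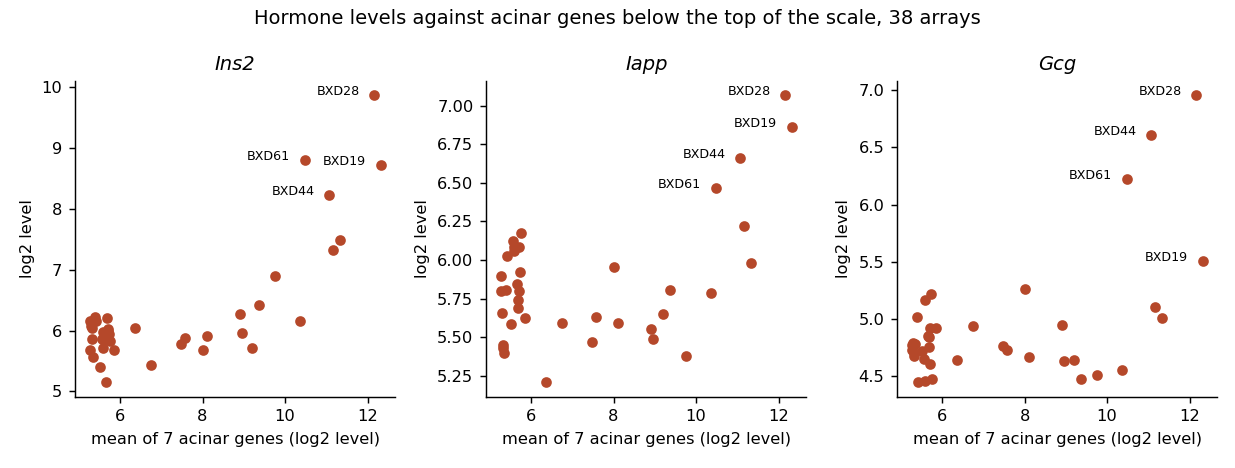
Normalised log2 level of Ins2, Iapp and Gcg (vertical) against the mean log2 level of 7 acinar genes that stayed under an intensity of 20000 (horizontal), 1 point for each of 38 arrays. The 4 named arrays lie at the upper right in all 3 panels, except that Gcg in BXD19 lies well under the other named arrays. The named arrays are those with the most Ins2. BXD36 (11.33) and BXD38 (11.15), not named, have higher acinar means than BXD44 (11.07) and BXD61 (10.48). Their Ins2 intensities were 222.4 and 176.2, against 343.9 and 430.2, and Gcg was not detected in them.

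Whether the hormones moved together was asked by fitting every probe on the Ins2 level with Cpa1 in the model. Iapp rose with Ins2 at equal Cpa1 by 0.36 ± 0.05 log2 units per log2 unit of Ins2 (SE, n = 38, limma adjusted p = 1.1e-06), and remained past the threshold with each of the 38 arrays left out in turn. Over all 17581 probes tested, 3.45% were called and 2.68% were called upwards. Over the 38 arrays Pearson's r of Iapp and Ins2 was 0.764 and Spearman's rho 0.37, with adjusted permutation p of 6e-05 and 0.0345, and r was 0.631 without BXD28 and BXD61. The slope of Iapp was 0.20 ± 0.10 (adjusted p = 0.521) without the 4 arrays with the most Ins2. The slope of Iapp was 0.09 with the deposited detection p-values and 0.18 with the authors' processed values, both past the threshold.

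Gcg is given as a description, because it entered the fit only through the 3 arrays on which it was detected, and these are the 3 arrays with the most Ins2. Its slope on Ins2 at equal Cpa1 was 0.44 ± 0.06. Its ranks over the 38 arrays were not related to those of Ins2 past the threshold (Spearman's rho 0.17, adjusted permutation p = 0.326). Pearson's r, which follows those 3 arrays, was 0.798, and 0.579 without BXD28 and BXD61. Gcg was not detected on any array outside the 4 with the most Ins2, and no relation could be measured there.

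**Figure D3:**
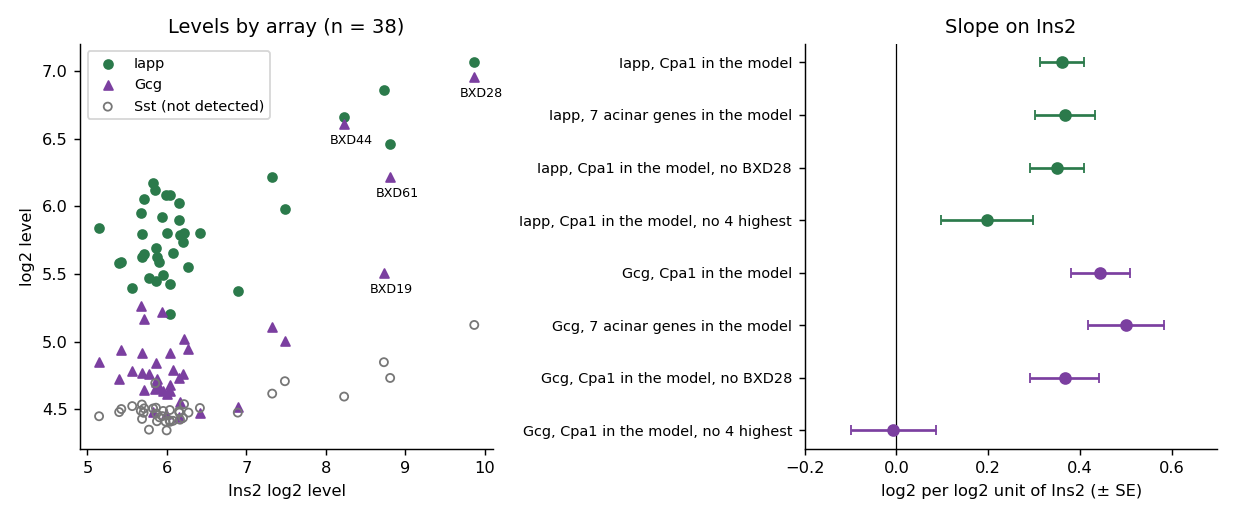
Left, normalised log2 levels of Iapp, Gcg and Sst (vertical) against that of Ins2 (horizontal) on 38 arrays; Sst was detected on none. Right, slope on Ins2 with its standard error for Iapp and Gcg under 4 settings each. Without the 4 arrays highest in Ins2 the slope of Iapp is 0.20, against 0.36 with them, and Gcg is not detected on any of the arrays left.

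With no filter on dim probes, Sst could also be fitted. Its slope on Ins2 at equal Cpa1 was 0.13 ± 0.02, given as a description because the probe was not detected on any array. Pearson's r of Sst and Ins2 was 0.824, but Spearman's rho was 0.287. The highest Sst intensity, 92.8, was in BXD28, the array with the most Ins2. Whether the slope follows a few arrays was not tested. Ppy had a slope of 0.03 ± 0.02 (limma adjusted p = 0.584) and Pyy of 0.00 ± 0.03 (adjusted p = 0.99) in the same fit. On Cpa1 none of these 3 probes passed the threshold, with adjusted p between 0.287 and 0.52.

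Many other genes of islet cells were detected on 0 arrays, as were 44.6% of all 34492 probes. Of the 21 genes of hormone processing and secretory granules with a probe, 13 were detected on 0 arrays, among them Chga and Chgb, the granins of the granule core, Pcsk1, a prohormone convertase, and Slc30a8, the granule zinc transporter. Of 9 glucose sensing genes, 6 were detected on 0 arrays, among them the glucose transporter gene Slc2a2. Of 14 islet transcription factors, 10 were detected on 0 arrays, among them Pdx1 and Nkx6-1 of beta cells. Of 19 genes of a receptor list, which also holds receptor partners and the peptidase genes Dpp4 and Ide, 8 were detected on 0 arrays, including the GLP-1 receptor gene Glp1r. Others were detected on all 38 arrays, as were 11377 of all 34492 probes. They were 4 processing and granule genes, among them Cpe and Scg5, 1 glucose sensing gene (Sytl4), 2 transcription factors (Hnf4a and Hhex) and 6 genes of the receptor list.

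The islet genes that were kept were read from the same fits, where 2% of all probes were called on Cpa1 and 3.45% on Ins2 at equal Cpa1. None of 7 processing and granule genes, 3 glucose sensing genes and 9 genes of the receptor list was called in either fit. So few genes cannot show a difference from those shares. The carboxypeptidase E gene Cpe, which trims prohormones, had a slope of 0.14 ± 0.05 on Ins2 (limma adjusted p = 0.121), Syt4 of 0.11 (adjusted p = 0.221) and Scg5 of 0.39 (adjusted p = 0.45). Of 4 transcription factors, 1 was called: Hnf4a, a nuclear receptor gene that pancreas, gut and liver share, rose with Cpa1 by 0.05 ± 0.01 (adjusted p = 0.0318) and with Ins2 at equal Cpa1 by 0.27 ± 0.06 (adjusted p = 0.00206). Hnf4a kept the second call without the 4 arrays with the most Ins2 (0.48, adjusted p = 0.0297) and lost the first (0.04, adjusted p = 0.324). Insm1, Hhex and Neurod1 did not pass either test.

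Of 6 other islet or gut hormone genes kept, 1 was called: Gal, which encodes the neuropeptide galanin. Its intensity was 102.8 on the lowest array, 139.4 at the median and 2649 on the highest (BXD19), one of the 4 arrays with the most Ins2. Gal rose with Cpa1 by 0.20 ± 0.04 log2 units per log2 unit (limma adjusted p = 0.00359) and with Ins2 at equal Cpa1 by 0.76 ± 0.17 (adjusted p = 0.00445). Without the 4 arrays the slope on Cpa1 was 0.13 (adjusted p = 0.0226) and the slope on Ins2 was 0.47 (adjusted p = 0.625).

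Some acinar and duct genes rose with Ins2 at equal Cpa1. In this fit 3.45% of all probes were called, and 2.68% were called upwards. Of 25 acinar genes tested, 11 rose and 0 fell, and 21 had a positive slope, with a median slope of 0.39, against -0.01 over all probes. The largest slopes among them were those of Ptf1a (1.13 ± 0.14, limma adjusted p = 2.2e-07) and Rbpjl (1.12 ± 0.14, adjusted p = 2.6e-07), whose products form a transcription factor complex of acinar cells. Of 8 duct genes, 5 rose, 3 did not pass and 0 fell: Muc1, a surface mucin (0.91 ± 0.09, adjusted p = 7.9e-09), the keratins Krt8 (0.89) and Krt18 (0.68), Tff2 (0.61) and Sox9 (0.31, adjusted p = 0.0123). Without the 4 arrays with the most Ins2, 3 acinar and 3 duct genes were called, among them Ptf1a (1.45, adjusted p = 0.00487) and Muc1 (1.04, adjusted p = 0.00154). Calls over all 17581 probes then numbered 106 upwards and 15 downwards. The acinar and duct counts depended on the acinar measure in the model. With the mean of the 7 acinar genes in place of Cpa1, 0 of the 18 remaining acinar genes rose and 6 fell, and 2 of 8 duct genes rose. Calls over all 17581 probes in that fit numbered 123 upwards and 31 downwards. The part of acinar and duct RNA in the relation among the hormones was not tested beyond these fits.

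**Figure D4:**
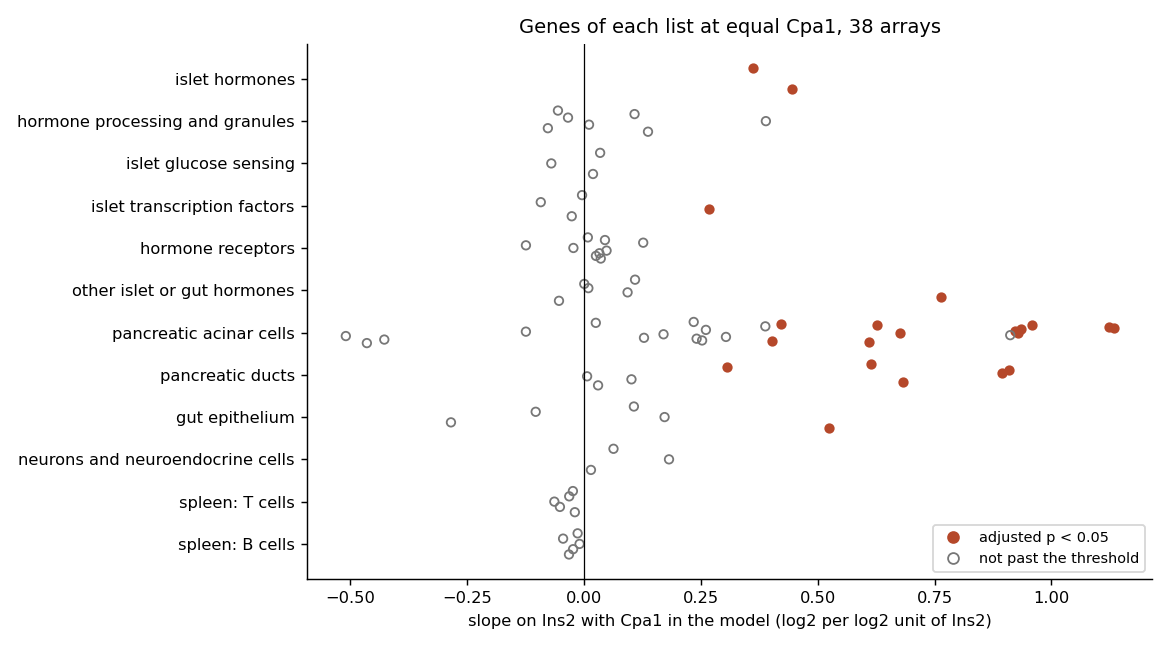
Slope of each kept gene on Ins2 with Cpa1 in the model (horizontal, log2 units per log2 unit of Ins2) by gene list, on 38 arrays; filled points passed an adjusted p of 0.05. Points past the threshold include Iapp, 11 acinar genes and 5 duct genes, all to the right, and no T or B cell gene. The point of Gcg is drawn as a description only. Gcg was kept through the 3 arrays on which it was detected, and these have the most Ins2.

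With the same 7 acinar genes in the model, Iapp rose with Ins2 by 0.37 ± 0.07 (limma adjusted p = 0.00145), and Gcg, again as a description, had a slope of 0.50 ± 0.08. Over all probes, 154 were called in that fit, and Hnf4a and Gal were not among them: 0 of 4 transcription factors and 0 of 6 other hormone genes passed.

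The genes with patterns most like each hormone were found by Spearman's rho over the 38 arrays among 12332 other kept probes with 1 symbol. For Ins2 these were Kcnq1 (0.768), Sostdc1 (0.757), Prdx4 (0.749), Copz2 (0.723) and Vtn (0.714). Iapp was nearest to Setd5 (0.758), Bub1 (0.744), Pde6a (0.728), Bmp1 (0.712) and Wfdc16 (0.707). Gcg was nearest to Unc79 (0.680), Fcrlb (0.676), Jade3 (0.658), Serac1 (0.643) and Stt3a (0.638). No gene of the acinar list and no other member was among them. This holds for the 5 nearest genes only: Spearman's rho of Ins2 and Cpa1 was 0.527. The median intensity of Ins2, 132.6, lay within the range of the detection limits, 95.5 to 135.4, so many of its ranks were set near the limit. Gcg was detected on 3 arrays, so its ranks are mostly ranks of background signal, and all these arrays share a normalisation. Iapp, mostly close to the detection limit, had a mean log2 level of 5.86, and its 5 nearest genes had mean levels of 5.72 to 6.19. Whether their shared ranks follow background signal was not tested.

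Neither Ins2 nor Iapp was called against the lymphocyte traits of the 34 strains with both measures. The slopes of Gcg are given as a description, because it was kept only through the 3 arrays on which it was detected. The traits were the natural logs of the T to B cell ratio (LN T:B), of the CD4+ to CD8+ ratio (LN CD4:CD8) and of median MHC class II on B cells (LN MHC Med). On LN T:B, the slopes in log2 units per SD of the trait were 0.02 ± 0.18 for Ins2, -0.03 ± 0.07 for Iapp and 0.06 ± 0.10 for Gcg. The limma adjusted p was 0.91 or more for Ins2 and Iapp, and 0.148% of all probes were called. On LN MHC Med the slopes were -0.12 ± 0.18, -0.08 ± 0.07 and -0.09 ± 0.10 in the same order. The adjusted p was 0.908 or more for Ins2 and Iapp, and 0.227% of all probes were called. With Cpa1 in the model, the slopes on LN T:B were -0.19 ± 0.16 for Ins2, -0.07 ± 0.07 for Iapp and -0.01 ± 0.10 for Gcg, so the sign turned for Ins2 and Gcg, and on LN MHC Med they were -0.33 ± 0.15, -0.13 ± 0.07 and -0.17 ± 0.09. Neither Ins2 nor Iapp passed the threshold in these fits, with adjusted p of 0.701 or more.

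On LN CD4:CD8 the slopes were 0.26 ± 0.18 for Ins2 (limma adjusted p = 0.59), 0.15 ± 0.07 for Iapp (adjusted p = 0.467) and 0.28 ± 0.08 for Gcg. Gcg stood at place 79 of 17583 probes by p, but it was kept only through the 3 arrays on which it was detected. Most of its values are background signal, so its slope and place are given as a description. Over all probes 0% were called on this trait, where 1831 had an unadjusted limma p under 0.05. Cpa1 itself had a slope of -0.02 ± 0.71 on LN CD4:CD8.

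**Figure D5:**
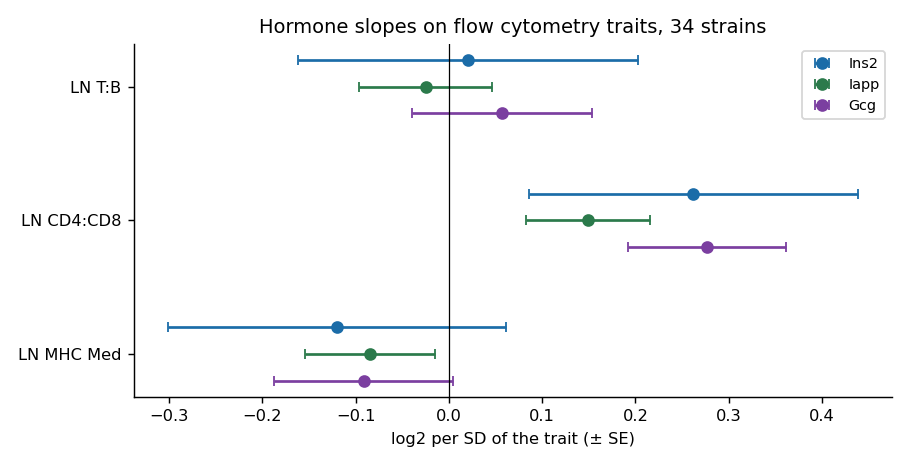
Slope of Ins2, Iapp and Gcg on 3 flow cytometry traits over 34 strains (horizontal, log2 units per SD of the trait; bars are standard errors). No slope of Ins2 or Iapp passed an adjusted p of 0.05, and Gcg is drawn as a description. Slopes on LN CD4:CD8, between 0.15 and 0.28, are the highest for each gene.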

How the data were processed

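Each of 38 strains had its spleen RNA hybridised to 1 Illumina array of the Sentrix Mouse-6 design, read in a single colour, per the labels. The deposited table holds unnormalised probe intensity values, each followed by its detection p-value, per the file headers. A second table deposited by the authors holds processed, log2-like values, and the submitters' processing notes name lumi with no version; the exact transformation is not given in the sources used here, and 37 of the 38 arrays correlated best with their own column. Per the labels, the deposited traits are natural log values.

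For some probes the deposited detection p-value did not follow intensity, so all were smoothed by intensity rank within each array (running median, window of 201 probes). This lowered the estimated background SD to 9.81 to 14.5 across arrays, against 236 to 582 as deposited. Intensities were then corrected and quantile-normalised with limma's neqc at an offset of 16 (limma 3.58.1, R 4.3.3). Of 34492 probes, 17583 detected at p under 0.01 on at least 3 arrays were kept; 13791 to 15732 were detected per array. GEO's platform annotation gave 20256 probes 1 symbol, 9 several and 14227 none. Entrez identifiers of 20213 were found in the RefSeq gene table and changed 0 symbols.

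Slopes came from lmFit and eBayes of limma, adjusted by Benjamini-Hochberg across every kept probe. The fit on Cpa1 was tested on simulated data of 17582 probes. It recovered 36 of 50 slopes of 0.05, 47 of 50 of 0.1, 50 of 50 of 0.2 and 46 of 50 of -0.1, with 8 false calls. These shares hold for the simulated probes and do not measure power for the hormone probes. Probes used as the horizontal variable were left out. Ins2, whose probe had the highest mean level of the members, served as the leading hormone; this is a choice of axis and no comparison of abundance between genes. Genes were named by rule: all members; Cpa1 and the acinar genes with the highest means; up to 5 genes per list by smallest p; and the 5 genes most alike to each kept member by rho. Other genes named for detection were chosen after their values were seen. The members, lists and tests were chosen with earlier results of these data known. Alternatives were tried for background correction, normalisation, filters, sex, covariates and arrays. The labels do not say how strains were spread over slides, and the number of arrays limits precision.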

Additional observations from a re-analysis of the deposited data

How the results depend on the processing

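The number of probes called on Cpa1 was 352 (195 higher and 157 lower), against 541 with the authors' processed values (242 and 299), 153 on probes detected on every array (38 and 115), 587 with the acinar mean (255 and 332), 976 with the 7 acinar genes under the top of the scale (373 and 603) and 148 without the 4 arrays with the most Ins2 (115 and 33). Other background settings split the calls as 170 higher and 238 lower (deposited detection p-values) and 209 and 221 (no correction). The Ins2 slope on Cpa1 lost its call with deposited detection p-values (0.036), on male arrays (0.13) and without the 4 arrays (0.0512); with each array left out in turn it ran from 0.11 to 0.14 and kept its call in 38 of 38 fits. Probes called on Ins2 at equal Cpa1 numbered 606, against 303 with deposited p-values, 199 on probes detected on every array, 955 without Cpa1, 154 with the 7 acinar genes and 121 without the 4 arrays. Without the 4 arrays Gcg was not detected on any array, and its fitted slope on Ins2 there was -0.0072 ± 0.0925, which gives no direction. On LN T:B, 26 probes were called, against 11 with deposited p-values and 0 with the authors' values, no filter, male arrays only, Cpa1 as a covariate and without the 2 strains of most extreme trait; limma's unadjusted p was under 0.05 for 2160, 3114, 1895, 1635 and 1203 probes in these 5 fits. The 7 acinar genes, single arrays left out and the fits without BXD28 or the 4 arrays were chosen after seeing the data. The cause of these changes was not tested. The slide was not run as a block, because no chip was given in the sources used here. No paired analysis was possible because each strain has 1 array and no groups were compared.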

Other observations

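Gut, nerve, fat and spleen gene lists were read from the same fits. Of 5 gut epithelium genes kept, 1 was called: Apoa4, an apolipoprotein gene of the small intestine, rose with Cpa1 by 0.08 ± 0.02 log2 units per log2 unit (limma adjusted p = 0.0473) and with Ins2 at equal Cpa1 by 0.52 ± 0.07 (adjusted p = 1.5e-06). Apoa4 was detected on 7 arrays. Without the 4 arrays with the most Ins2, its slope on Ins2 was 0.75 ± 0.11 (adjusted p = 0.000158) and its slope on Cpa1 was 0.04 (adjusted p = 0.358). Cdx2, an intestinal transcription factor gene, had a slope of 0.17 ± 0.06 on Ins2 (adjusted p = 0.117). None of 3 neuron genes, 6 adipocyte genes, 5 T cell genes, 5 B cell genes and 6 red pulp or erythroid genes was called in either fit. Over all probes, 2% were called on Cpa1 and 3.45% on Ins2 at equal Cpa1, so these small lists cannot show a difference.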
